A study of Mus musculus with 12 samples.

Results

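The genes described here are 50 enzymes and core enzyme-complex subunits that place or remove methyl and acetyl groups on histones. They were chosen by gene symbol, and all 50 were found by Ensembl ID among the 26409 genes of the deposited table. They comprise 19 methyl writers, 11 methyl erasers, 9 acetyl writers and 11 acetyl erasers.

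Histone acetyltransferases and deacetylases add and remove acetyl groups on lysines, and acetylated chromatin is generally open to transcription. Lysine methyltransferases and demethylases work on specific residues, so that methylated H3K4 marks active promoters whereas methylated H3K9 and H3K27 mark silent chromatin. In the hippocampus, several of these enzymes are required for learning and long-term memory, and DEK is a chromatin protein that binds DNA and histones.

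Bulk RNA from microdissected hippocampus of adult mice was sequenced after behavioral testing, and the series asks what the loss of *Dek* does to hippocampal gene expression. *Dek* cKO mice carried a constitutive deletion of the loxP-flanked exons 3 and 4 of *Dek* in every tissue, made by crossing to CMV-Cre mice on a C57Bl/6 background and then passed through the germline without Cre. WT mice carried intact *Dek*. There were 12 libraries, 3 each from female WT, male WT, female *Dek* cKO and male *Dek* cKO mice. The deletion is neither restricted to the brain nor to adult life. The 3 female WT libraries are named after the C57 strain and the other 9 after the CMV line, so within females the library name and the genotype cannot be told apart.

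Values are TPM, a relative transcript level that is scaled to a fixed library total, corrected for transcript length and can be compared between genes. TPM keeps no read depth. The deposited values summed to between 825750 and 845553 per library.

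*Dek* itself (ENSMUSG00000021377, chromosome 13, 47084775 to 47106201, GRCm38) checked the genotype labels. In the 6 WT libraries its level was 44.2 TPM at the lowest, 48.8 at the median and 51.9 at the highest, and in the 6 *Dek* cKO libraries it was 5.55, 6.99 and 9.25 TPM. The genotypes were far apart in all 12 libraries, and the log2 fold change was −2.74 ± 0.10 (SE; limma, adjusted p = 1.17e-08).

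Y-linked genes gave a check of sex, and 2 libraries went against their labels. *Eif2s3y* stood at 72.7 TPM in the library labelled female cKO 3, a level like the 72.4 to 92.0 TPM of the male WT libraries, and at 0.111 TPM in the library labelled male cKO 1. *Ddx3y*, *Kdm5d* and *Uty* showed the same exchange. Results within a sex are therefore given by the labels and also with the sex of this pair exchanged and with both libraries left out.

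The tissue was checked with marker genes. All 6 neuronal markers were present, with a summed level between 3749 and 4229 TPM per library and *Snap25* as the most abundant gene. Choroid plexus markers, led by *Ttr*, summed to between 46.2 and 4480 TPM and varied within both genotypes. Whether the dissections held unequal amounts of that tissue was not tested. The 5 cortex markers, led by *Lamp5* at a mean of 38.2 TPM, summed to 197 TPM in female cKO 1 and 170 TPM in female cKO 2, above the 86.0 to 126 TPM of the other 10 libraries. Dentate granule markers, led by *C1ql2* at a mean of 76.9 TPM, summed to between 77.3 TPM in female WT 1 and 146 TPM in the library labelled female cKO 3. The lowest of this list was *Prox1*, at a mean of 2.17 TPM.

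Among the 50 enzymes, 49 passed the minimum mean level of 0.1 TPM and were tested. *Hdac4*, a class IIa deacetylase, was listed at 0 in all 12 libraries and was not tested. From this table an absent transcript and one missed by the annotation or the quantification cannot be told apart. It was 1 of 4640 genes listed at 0 throughout, 1914 of them protein-coding, while 0 of 164 ribosomal, proteasomal and other housekeeping-family genes were listed at 0.

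The tested enzymes spanned a wide range of levels. Their WT means ran from 0.578 to 163 TPM with a median of 21.7 TPM, beside 9.41 TPM over all 18197 genes tested. Of the 49, 38 lay between 5 and 50 TPM, 9 lay at or above 50 TPM and 2 lay under 5 TPM. Their spread among WT libraries was small, with a median coefficient of variation of 6.77%, beside 8.77% over the genes tested with a WT mean of at least 1 TPM.

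**Figure D1:**
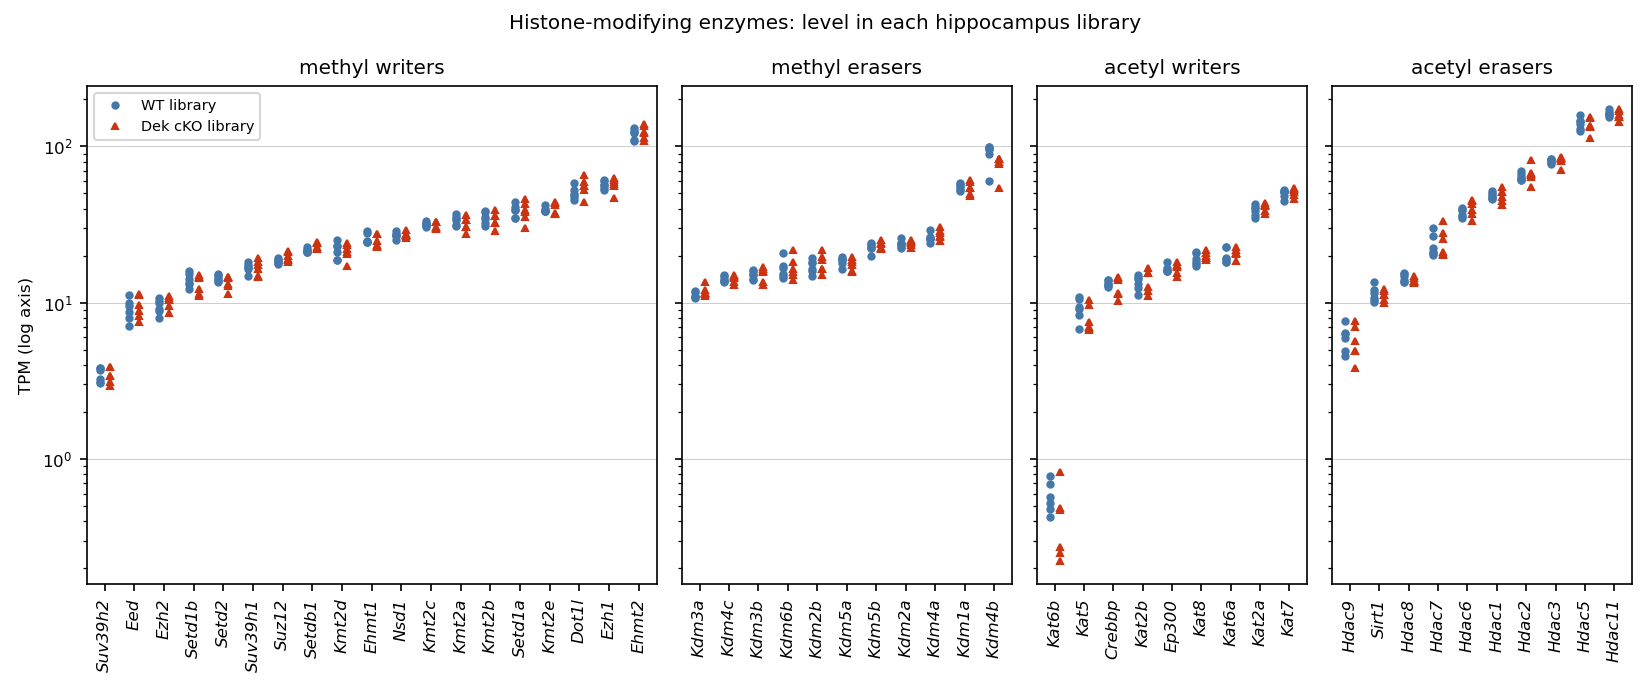
Level in TPM (log axis) of the 49 tested enzymes in each of the 6 WT (circles) and 6 *Dek* cKO (triangles) libraries, by role and in order of the WT mean. The symbols of the genotypes lie over each other for every enzyme, from *Kat6b* near the bottom of the axis to *Hdac11* at the top.

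No enzyme differed between genotypes at the set threshold. With limma, 0 of 49 passed (adjusted p below 0.05 and more than 1.2-fold) in the comparison of both sexes, beside 0.148% of all genes tested, and 1 of 49 had an unadjusted p under 0.05, beside 6.64% of all genes. The 6 *Dek* cKO values lay apart from the 6 WT values for 0 of 49 enzymes, beside 0.676% of all genes. The median log2 fold change of the enzymes was 0.0079, beside 0.016 over all genes tested, and 28 enzymes were above 0 and 21 below. All fold changes are on the scale of log2(TPM + 0.1), which understates changes of low genes.

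The precision of the comparison was given by the 95% interval of each fold change. It lay wholly within 1.2-fold in either direction for 37 of 49 enzymes, beside 36.6% of all genes tested and 47.0% of those with a mean of at least 1 TPM. These shares are not matched on level. Among the other histone modifier and partner genes described below it was 146 of 228, or 64.0%. For the other 12 of the 49 enzymes a change of 1.2-fold was within the interval: *Setd1b*, *Dot1l*, *Eed*, *Ezh2*, *Kdm4b*, *Kdm6b*, *Crebbp*, *Kat2b*, *Kat5*, *Kat6b*, *Hdac7* and *Hdac9*. As these are bulk samples, fewer cells of a type and less RNA per cell cannot be told apart.

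**Figure D2:**
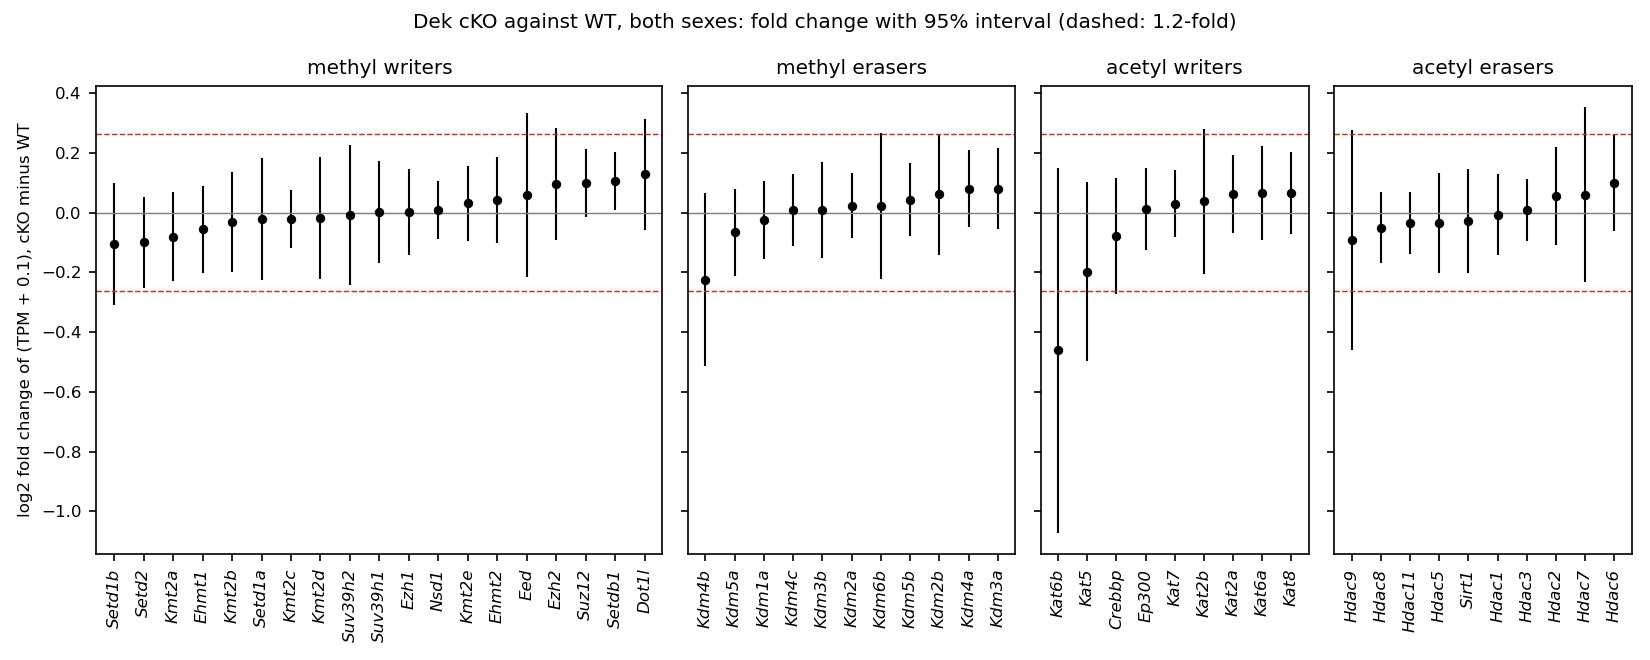
Log2 fold change of *Dek* cKO against WT (both sexes, 6 libraries each) with its 95% interval for the 49 tested enzymes, by role. Dashed lines mark 1.2-fold, and 37 intervals lie between them, while *Kat6b* has the widest, from −1.07 to 0.15.

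Methyl writers were led by the H3K9 enzymes at both ends of the range. *Ehmt2*, or G9a, which places mono- and dimethyl marks on H3K9, had the highest level of the 19 (ENSMUSG00000013787, chromosome 17, 34898469 to 34914052). Its WT libraries stood at 109 TPM at the lowest, 122 at the median and 130 at the highest, and its *Dek* cKO libraries at 109, 123 and 139 TPM. The genotypes overlapped, while female cKO 1 at 134 TPM and the library labelled female cKO 3 at 139 TPM were above every WT library. The log2 fold change was 0.04 ± 0.07 (SE; limma, adjusted p = 0.961), and it ran from 0.0020 to 0.077 over 23 alternatives. *Suv39h2*, which trimethylates H3K9 in heterochromatin, had the lowest level (ENSMUSG00000026646, chromosome 2, 3455815 to 3475031). Its WT libraries ran from 3.06 to 3.80 TPM with a median of 3.49, and its *Dek* cKO libraries from 2.93 to 3.88 TPM with a median of 3.41. Again the genotypes overlapped, with a log2 fold change of −0.0086 ± 0.11 (SE; limma, adjusted p = 0.999).

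*Setdb1*, the H3K9 methyltransferase that silences retroelements together with TRIM28, was the enzyme with an unadjusted p under 0.05 in both sexes (ENSMUSG00000015697, chromosome 3, 95323525 to 95357202). Its WT libraries stood at 21.1 TPM at the lowest, 21.5 at the median and 22.6 at the highest, and its *Dek* cKO libraries at 22.0, 23.3 and 24.4 TPM. The *Dek* cKO values lay mostly higher, and the groups overlapped where male WT 2 was above the library labelled female cKO 3 and above male cKO 2. The highest libraries were female cKO 1 at 24.4 TPM and female cKO 2 at 24.3 TPM, which also had the highest cortex marker sums. The library labelled male cKO 1 was close, at 23.96 TPM, with a cortex sum of 118 TPM. The part of cortex in the *Setdb1* values was not tested. *Setdb1* had a log2 fold change of 0.10 ± 0.04 (SE; limma, unadjusted p = 0.0359, adjusted p = 0.710). Its 95% interval, from 0.0080 to 0.20, stayed under 1.2-fold. With both libraries of conflicting sex left out, a choice made after seeing the data, the unadjusted p was 0.0576 and the adjusted p was 0.705 (limma). Over 23 alternatives the adjusted p of *Setdb1* ran from 0.534 to 0.997, and its unadjusted p stayed under 0.05 in 12 of them, among these 4 of the 12 that left out 1 library.

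The remaining H3K9 writers were *Ehmt1*, the partner of *Ehmt2*, at a WT mean of 25.8 ± 1.98 TPM (SD, n = 6) and the X-linked *Suv39h1* at 16.8 ± 1.13 TPM. In both sexes together, all 5 H3K9 writers had intervals within 1.2-fold, whereas by the labels 0 of 5 did in females and 3 of 5 in males. Within a sex 3 libraries are compared with 3, and intervals are wider throughout. Of the 49 enzymes tested, 18 had such an interval in females and 19 in males, beside 19.5% and 19.4% of all genes.

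The H3K4 writers include the catalytic subunits of the COMPASS complexes. From low to high the WT means were *Setd1b* at 14.0 ± 1.41 TPM, *Kmt2d* at 21.7 ± 2.61, *Kmt2c* at 31.8 ± 1.04, *Kmt2a* at 33.8 ± 2.31, *Kmt2b* at 34.9 ± 3.01, *Setd1a* at 38.9 ± 3.55 and *Kmt2e* at 39.3 ± 1.51 TPM. *Kmt2e* belongs to the family by sequence and is thought to lack strong enzyme activity of its own. Neighbours from *Kmt2c* to *Kmt2b* and from *Setd1a* to *Kmt2e* differed by less than the larger of their SDs. The median log2 fold change of the 7 was −0.02.

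The H3K27 writers are the core of Polycomb repressive complex PRC2, in which *Ezh1* or *Ezh2* is the catalytic subunit and *Suz12* and *Eed* are required partners. *Ezh1* had a WT mean of 56.9 ± 3.09 TPM, *Suz12* 18.4 ± 0.628, *Ezh2* 9.48 ± 0.985 and *Eed* 9.09 ± 1.45 TPM. In this adult tissue *Ezh1* was above *Ezh2* in all 12 libraries, by a mean ratio of 6.05 ± 0.642 (SD) in WT and 5.68 ± 0.825 in *Dek* cKO.

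*Suz12* had an unadjusted p under 0.05 within males (ENSMUSG00000017548, chromosome 11, 79993106 to 80034123). The male WT libraries stood at 17.6, 18.1 and 18.0 TPM, and the libraries labelled male cKO at 21.4, 19.1 and 20.03 TPM. By the labels every male *Dek* cKO value was above every male WT value, the highest being the library of conflicting sex, and the male groups also lay apart with the sexes exchanged. The female WT libraries were at 18.7, 19.3 and 18.7 TPM and those labelled female cKO at 18.1, 20.98 and 18.8 TPM, which overlapped. The log2 fold change in males was 0.17 ± 0.08 (SE; limma, unadjusted p = 0.0451, adjusted p = 0.880). With the sexes exchanged it was 0.11 ± 0.07 (limma, unadjusted p = 0.173), and with both libraries left out 0.13 ± 0.08 (unadjusted p = 0.158). The adjusted p ran from 0.470 to 1 over the alternatives.

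The H3K36 writers were *Nsd1*, at 27.1 ± 1.14 TPM and on the same chromosome as *Dek*, and *Setd2*, the enzyme of trimethylation that travels with RNA polymerase II, at 14.4 ± 0.656 TPM. *Dot1l*, the H3K79 methyltransferase, was at 50.4 ± 4.44 TPM.

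Methyl erasers lay between 11.2 and 89.98 TPM. *Kdm4b*, a demethylase of H3K9 and H3K36, was the highest of the 11 (ENSMUSG00000024201, chromosome 17, 56326062 to 56402870). The female WT libraries stood at 96.9, 98.6 and 88.9 TPM and the libraries labelled female cKO at 82.9, 83.2 and 76.8 TPM. The male WT libraries were at 99.6, 96.1 and 59.8 TPM and those labelled male cKO at 79.98, 54.4 and 82.8 TPM. Apart from male WT 3, every WT library was above every *Dek* cKO library, and with male WT 3 the groups overlapped. In both sexes together the log2 fold change was −0.22 ± 0.13 (SE; limma, unadjusted p = 0.118, adjusted p = 0.850). Without male WT 3 it was −0.34 ± 0.10 (limma, unadjusted p = 0.0053, adjusted p = 0.522), and without male cKO 2 it was −0.13 ± 0.11 (unadjusted p = 0.285, adjusted p = 0.834). Over the 23 alternatives the adjusted p ran from 0.522 to 0.997.

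*Kdm3a*, an H3K9 demethylase, was the lowest (ENSMUSG00000053470, chromosome 6, 71588972 to 71632990). Its WT libraries ran from 10.8 to 11.8 TPM with a median of 10.9, and its *Dek* cKO libraries from 10.996 to 13.5 TPM with a median of 11.5. Female cKO 2 and female cKO 1, at 12.1 TPM, were above every WT library and are again the libraries with the highest cortex marker sums, while the other *Dek* cKO libraries overlapped with WT. On the log2 scale the fold change was 0.08 ± 0.06 (SE; limma, adjusted p = 0.898), and it ran from 0.0416 to 0.105 over 23 alternatives.

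*Kdm6b*, the H3K27 demethylase JMJD3, had an unadjusted p under 0.05 for the interaction, the difference between the male and the female change (ENSMUSG00000018476, chromosome 11, 69398508 to 69413675). The female WT libraries stood at 17.2, 20.9 and 16.8 TPM and the libraries labelled female cKO at 15.7, 16.5 and 15.0 TPM. The male WT libraries were at 14.3, 15.2 and 14.8 TPM and those labelled male cKO at 18.1, 14.0 and 21.7 TPM. By the labels every female *Dek* cKO value was below every female WT value, whereas the female groups overlapped with the sexes exchanged, and in males the *Dek* cKO values included both the lowest and the highest. The log2 fold change was −0.21 ± 0.14 in females and 0.26 ± 0.14 in males, and the male minus female difference was 0.46 ± 0.20 (SE; limma, unadjusted p = 0.0392, adjusted p = 0.966). With the sexes exchanged the difference was 0.28 ± 0.21 (limma, unadjusted p = 0.203), and with both libraries left out it was 0.41 ± 0.24 (unadjusted p = 0.119). The adjusted p ran from 0.588 to 1.00 over 22 alternatives.

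The highest of the other methyl erasers was *Kdm1a*, or LSD1, which demethylates H3K4 within CoREST complexes, at 55.2 ± 2.67 TPM in WT. The H3K4 demethylases *Kdm5a* and *Kdm5b* were at 18.4 ± 1.14 and 22.7 ± 1.46 TPM, and the H3K36 demethylases *Kdm2a* and *Kdm2b* at 23.7 ± 1.204 and 17.2 ± 1.66 TPM. The H3K9 demethylase *Kdm3b* was at 15.1 ± 0.940 TPM, and *Kdm4a* and *Kdm4c*, which act on H3K9 and H3K36, were at 26.1 ± 1.66 and 14.2 ± 0.606 TPM.

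Acetyl writers were the lowest of the roles in summed level. *Kat7*, or HBO1, an H3 and H4 acetyltransferase of the MYST family, was the highest of the 9 (ENSMUSG00000038909, chromosome 11, 95274259 to 95310246). Its WT libraries ran from 44.6 to 52.4 TPM with a median of 50.9, and its *Dek* cKO libraries from 46.1 to 53.8 TPM with a median of 51.7. The genotypes overlapped throughout, with a log2 fold change of 0.03 ± 0.05 (SE; limma, adjusted p = 0.969). *Kat6b*, also a MYST enzyme, was the lowest of all tested (ENSMUSG00000021767, chromosome 14, 21481434 to 21672478). Its WT libraries ran from 0.426 to 0.775 TPM with a median of 0.548, and its *Dek* cKO libraries from 0.221 to 0.828 TPM with a median of 0.372. The *Dek* cKO libraries included 3 below every WT library and, in the library labelled male cKO 1, the highest value of all 12. Its log2 fold change was −0.46 ± 0.28 (SE; limma, adjusted p = 0.852). Without the library labelled male cKO 1 it was −0.65 (limma, unadjusted p = 0.0258, adjusted p = 0.674), and with 1 TPM added it was −0.16, the ends of its range over 22 alternatives. Its adjusted p ran from 0.674 to 0.997 over them.

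The paralogue *Kat6a* was far higher, at 20.01 ± 2.11 TPM in WT, and the other MYST enzymes were *Kat8*, which acetylates H4K16, at 19.0 ± 1.62 TPM and *Kat5*, or TIP60, at 9.19 ± 1.48 TPM. The coactivators *Ep300* and *Crebbp*, which acetylate H3K27 at enhancers, were at 16.5 ± 0.907 and 13.3 ± 0.602 TPM. *Kat2a* (GCN5) was at 39.0 ± 3.14 TPM and *Kat2b* (PCAF) at 13.4 ± 1.44 TPM.

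Acetyl erasers reached the highest levels. *Hdac11*, the class IV deacetylase, was the highest of the 49 enzymes tested (ENSMUSG00000034245, chromosome 6, 91156665 to 91174692). Its WT libraries ran from 155 to 173 TPM with a median of 161, and its *Dek* cKO libraries from 144 to 174 TPM with a median of 156. The genotypes overlapped, and the log2 fold change was −0.04 ± 0.05 (SE; limma, adjusted p = 0.949). The class IIa enzyme *Hdac5*, a signal-responsive corepressor in neurons, followed at 141 ± 12.4 TPM. *Hdac11* and *Hdac5* together with *Hdac3* held 27.6%, 23.8% and 13.7% of the summed WT level of the 10 acetyl erasers tested.

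*Hdac6*, a mainly cytoplasmic class IIb deacetylase of tubulin, is X-linked and had an unadjusted p under 0.05 in females and in the interaction (ENSMUSG00000031161, chromosome X, 7930120 to 7947889). The female WT libraries stood at 34.8, 39.0 and 39.1 TPM and the libraries labelled female cKO at 45.3, 44.5 and 42.9 TPM. The male WT libraries were at 35.7, 40.4 and 36.2 TPM and those labelled male cKO at 39.4, 36.7 and 33.6 TPM. The libraries labelled female cKO were above every other library, the one of conflicting sex among them, while the male groups overlapped. The highest 2, female cKO 1 and 2, are again those with the highest cortex marker sums, while the library labelled female cKO 3 had a cortex sum of 90.6 TPM. Interneuron markers summed to 873, 860 and 855 TPM in the libraries labelled female cKO, and to at most 833 TPM in the others. Thalamus markers summed to 70.4, 74.3 and 70.7 TPM in them, and to at most 67.6 TPM in the others. Of all marker lists only these 2 placed the libraries labelled female cKO above all others, and they are named for that reason. The part of cortex, interneurons and thalamus in the *Hdac6* values was not tested. In females the log2 fold change was 0.23 ± 0.08 (SE; limma, unadjusted p = 0.0123, adjusted p = 0.771), and the male minus female difference was −0.27 ± 0.11 (unadjusted p = 0.0333, adjusted p = 0.966). With the sexes exchanged the female value was 0.19 ± 0.10 (limma, unadjusted p = 0.0732) and the difference −0.19 ± 0.14 (unadjusted p = 0.202). With both libraries left out they were 0.26 ± 0.08 (unadjusted p = 0.0133) and −0.35 ± 0.12 (unadjusted p = 0.0163). The adjusted p ran from 0.416 to 1 in females and from 0.454 to 1.00 in the interaction over the alternatives.

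The class I deacetylases were *Hdac3*, the enzyme of NCoR complexes, at 80.8 ± 2.54 TPM, *Hdac2* at 63.8 ± 3.505 and *Hdac1* at 48.5 ± 2.18 TPM, which are shared by the Sin3, NuRD and CoREST complexes, and the X-linked *Hdac8* at 14.5 ± 0.856 TPM. In both sexes together all 4 had intervals within 1.2-fold. By the labels 3 did in females and 2 in males, beside 18 and 19 of the 49 enzymes tested. *Hdac7* and *Hdac9*, of class IIa, were at 23.6 ± 3.99 and 5.96 ± 1.125 TPM, and *Hdac9* was the lowest acetyl eraser above 0. The WT libraries of *Hdac9* ran from 4.56 to 7.68 TPM with a median of 6.13. Its *Dek* cKO libraries ran from 3.82 to 7.62 TPM with a median of 5.29. The genotypes overlapped, with a log2 fold change of −0.09 ± 0.17 (SE; limma, adjusted p = 0.971). The sirtuin *Sirt1*, an NAD-dependent deacetylase, was at 11.4 ± 1.25 TPM.

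**Figure D3:**
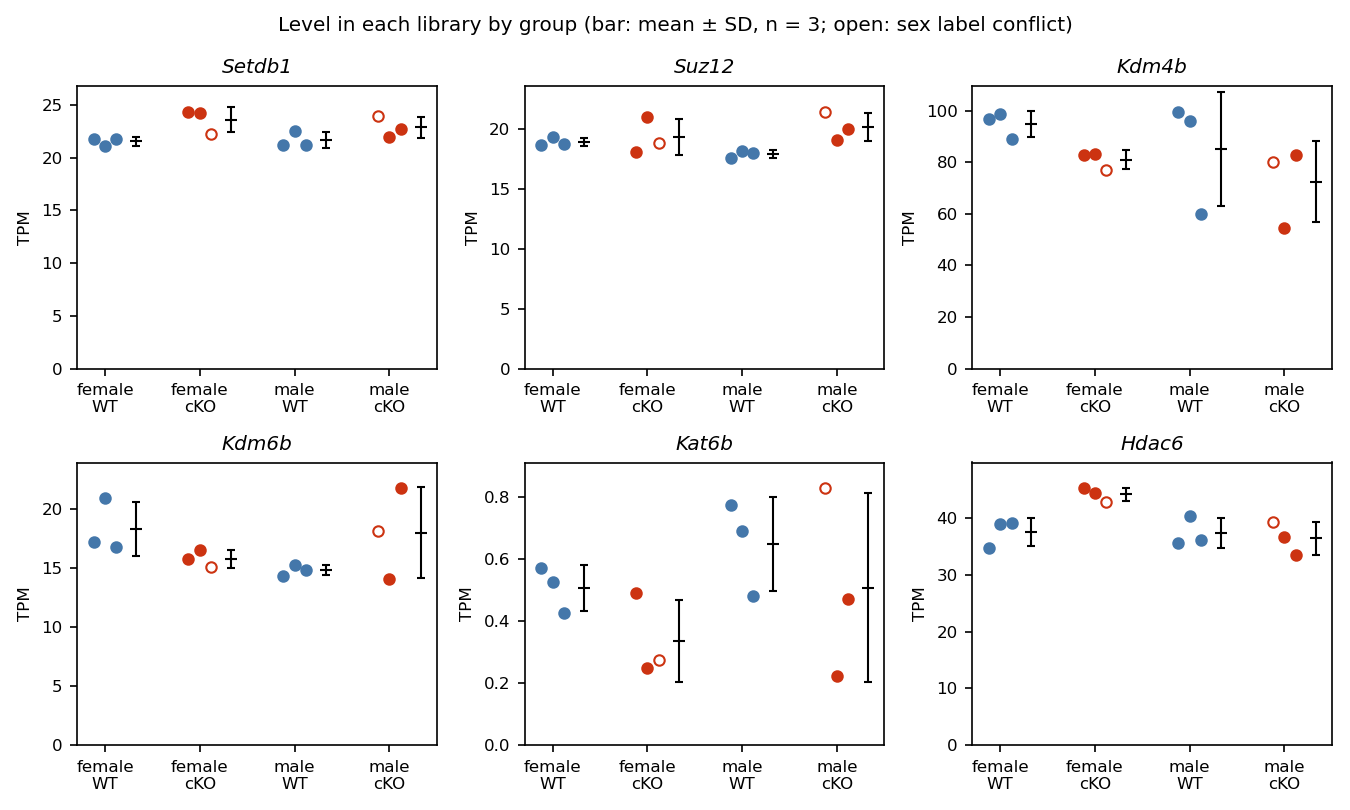
Level in TPM of 6 enzymes in each library, by the sex and genotype of the labels, with the mean and SD of each group of 3. Open circles are the libraries labelled female cKO 3 and male cKO 1, and the libraries labelled female cKO lie above all others for *Hdac6*.

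Summed by role, the enzymes gave similar totals in the genotypes. The methyl writers summed to 588 ± 28.2 TPM in WT and 595 ± 28.8 TPM in *Dek* cKO (SD, n = 6), and the methyl erasers to 310 ± 18.3 and 300 ± 24.5 TPM. The acetyl writers summed to 181 ± 4.49 and 184 ± 7.80 TPM, and the acetyl erasers to 589 ± 25.0 and 589 ± 35.4 TPM. Each difference was smaller than the SDs.

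Paralogues were compared within each library for the 14 pairs with both members above 0. In 13 pairs the same paralogue was the higher one in all 12 libraries, the exception being *Kmt2b* and *Kmt2a*, whose ratio ran from 0.916 to 1.16. The widest gap was between *Kat6a* and *Kat6b*, with a ratio of 24.7 to 47.1 in WT and 27.4 to 87.6 in *Dek* cKO. *Suv39h1* exceeded *Suv39h2* by a mean of 4.92 in WT and 4.93 in *Dek* cKO, and *Ehmt2* exceeded *Ehmt1* by 4.66 and 5.02. Smaller mean WT ratios were found for *Hdac7* over *Hdac9* at 4.06, *Kat2a* over *Kat2b* at 2.94, *Setd1a* over *Setd1b* at 2.78 and *Kmt2c* over *Kmt2d* at 1.48. The mean WT ratio was 1.39 for *Kdm2a* over *Kdm2b*, 1.35 for *Kdm3b* over *Kdm3a*, 1.32 for *Hdac2* over *Hdac1*, 1.24 for *Ep300* over *Crebbp* and 1.23 for *Kdm5b* over *Kdm5a*. In 0 of 14 pairs did the ratios of the genotypes lie apart. The pair of *Hdac5* and *Hdac4* could not be given a ratio because *Hdac4* was listed at 0.

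Within each sex, limma called 0 of 49 enzymes, beside 0.0165% of all genes tested in females and 0.0165% in males. An unadjusted p under 0.05 was found for 1 of 49 enzymes in females, beside 5.79% of all genes, and for 1 of 49 in males, beside 5.45%. With the sexes exchanged these counts were 3 in females (*Setdb1*, *Kat2b* and *Kat5*), beside 6.41% of all genes, and 1 in males (*Crebbp*), beside 7.99%. With both libraries left out they were 2 (*Setdb1* and *Hdac6*), beside 8.56%, and 1 (*Crebbp*), beside 8.86%. The enzymes added by these alternatives are named after their values were seen.

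By the labels, values of 3 libraries against 3 did not overlap for 5 of 49 enzymes in females, beside 12% of all genes, and for 3 of 49 in males, beside 9.75%. With the sexes exchanged the genotypes lay apart for 6 in females, beside 13.1%, and for 7 in males, beside 11.1%. With both libraries left out, 2 *Dek* cKO libraries against 3 WT libraries, they lay apart for 12 in females, beside 28% of all genes, and for 12 in males, beside 21.4%. Every enzyme apart by the labels is apart in this last count by construction, as it only removes libraries. Both by the labels and with the sexes exchanged, *Setdb1* and *Hdac6* were higher and *Kdm4b* lower in female *Dek* cKO. In the same way, *Suz12* was higher and *Hdac8* lower in male *Dek* cKO. These counts share 5 of the 6 libraries of a sex, so such repeats are partly built in. The share of all genes apart in both counts was not counted. The other enzymes apart by the labels, *Ezh1* and *Kdm6b* in females and *Kdm4a* in males, overlapped with the sexes exchanged.

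The interaction of sex and genotype called 0 of 49 enzymes with limma, beside 0% of all genes, and gave an unadjusted p under 0.05 for 2 of 49, beside 4.23% of all genes. These were *Hdac6* and *Kdm6b*. With the sexes exchanged there were 3 others, *Crebbp*, *Kat2b* and *Kmt2e*, beside 6.61% of all genes, and with both libraries left out 3, *Crebbp*, *Hdac6* and *Hdac9*, beside 8.8%.

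The wider machinery was covered by 11 lists of other histone-modifying enzymes, complex partners and readers. Of 231 such genes found, 228 were tested, and limma called 0 in both sexes, with 7 at an unadjusted p under 0.05, 5 higher and 2 lower in *Dek* cKO, beside 6.64% of all genes. Their median log2 fold change was 0.010. The counts at an unadjusted p under 0.05 were 3 of 22 other lysine methyltransferases, 0 of 13 other lysine demethylases, 0 of 8 arginine methyltransferases, 0 of 12 other acetyltransferases and 0 of 7 other deacetylases. Among partners and readers they were 0 of 15 for COMPASS, 0 of 32 for Polycomb, 1 of 36 for deacetylase complexes, 2 of 41 for acetyltransferase complexes, 1 of 21 for H3K9 and DNA methylation and 0 of 21 for acetyl-lysine readers. The list medians ran from −0.02 to 0.05.

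The 3 genes of these lists with the smallest unadjusted p were *Smyd4*, *Brms1* and *Uhrf2*. *Smyd4*, a SET and MYND domain protein, was at 8.01 TPM at the lowest, 10.7 at the median and 12.8 at the highest in WT, and at 12.9, 14.9 and 19.8 TPM in *Dek* cKO. Every *Dek* cKO library was above every WT library, and the log2 fold change was 0.54 ± 0.12 (SE; limma, unadjusted p = 0.000597, adjusted p = 0.167). *Brms1*, a subunit of Sin3 deacetylase complexes, was at 18.0, 20.1 and 21.6 TPM in WT and at 20.8, 23.9 and 26.0 TPM in *Dek* cKO, which overlapped at the edge, with a log2 fold change of 0.23 ± 0.06 (limma, adjusted p = 0.346). *Uhrf2*, a ubiquitin ligase that reads methylated H3K9 and modified cytosine, was at 43.4, 45.2 and 48.3 TPM in WT and at 36.7, 41.2 and 43.0 TPM in *Dek* cKO. All its *Dek* cKO values lay below the WT values, and the log2 fold change was −0.18 ± 0.05 (limma, adjusted p = 0.410). The genotypes lay apart for 0.676% of all genes tested. How many list genes lay apart was not counted, and *Smyd4* and *Uhrf2* were picked by the same values.

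Promoter windows from RefSeq (GRCm38.p6) were matched for 38 of the 50 enzymes, or 76%. As fewer than 80% had one, a comparison of base composition over the set is void, and 3 windows are shown as examples of how much these starts differ in the dinucleotide CG. They are the 250 bases before the start of *Suz12* and *Hdac6*, which had an unadjusted p under 0.05, and of *Hdac9*, the lowest acetyl eraser above 0. CG, which reads the same on both strands, is in capitals. The *Suz12* window (chr11:79992856-79993105, plus strand) holds 37 CG, the *Hdac6* window (chrX:7947890-7948139, minus strand) 17 and this *Hdac9* window (chr12:34917096-34917345, minus strand) 0. A second *Hdac9* window (chr12:34528890-34529139, minus strand) holds 2. *Setdb1* also had an unadjusted p under 0.05, and its window (chr3:95357203-95357452, minus strand), which is not shown, holds 13. The windows of *Kat6b*, the lowest of all enzymes tested, are not shown either and hold 27 and 29. At least 1 CG is found in 92.1% of all 32851 windows of this length, and the median is 6.
*Suz12*: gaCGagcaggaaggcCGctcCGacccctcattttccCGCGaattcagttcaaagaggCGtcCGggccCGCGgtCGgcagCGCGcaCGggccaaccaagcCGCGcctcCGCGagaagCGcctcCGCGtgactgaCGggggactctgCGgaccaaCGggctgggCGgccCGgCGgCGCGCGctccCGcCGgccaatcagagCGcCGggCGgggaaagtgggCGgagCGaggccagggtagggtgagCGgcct
*Hdac6*: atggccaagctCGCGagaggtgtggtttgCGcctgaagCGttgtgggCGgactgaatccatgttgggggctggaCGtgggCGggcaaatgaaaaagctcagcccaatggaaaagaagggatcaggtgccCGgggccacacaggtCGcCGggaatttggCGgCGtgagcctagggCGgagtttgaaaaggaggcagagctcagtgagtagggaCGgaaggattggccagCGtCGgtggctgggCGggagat
*Hdac9*: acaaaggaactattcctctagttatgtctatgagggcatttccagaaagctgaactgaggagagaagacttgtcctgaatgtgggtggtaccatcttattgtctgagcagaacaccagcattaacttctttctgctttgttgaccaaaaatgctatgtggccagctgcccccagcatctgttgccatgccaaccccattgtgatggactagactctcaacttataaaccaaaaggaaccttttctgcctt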

How the data were processed

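RNA of 12 mouse hippocampi was sequenced, and the authors deposited 1 table of TPM per gene and library. The submitters' processing notes name kallisto and mm10, whereas the study's methods describe trimming, removal of ribosomal reads, STAR, Salmon and featureCounts on GRCm38. Which of them wrote the table is not stated, and no read counts are kept, so a count test was not used. Genes were named by Ensembl ID with GENCODE M21. Groups follow the sample labels.

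A filter kept 18197 genes whose mean reached 0.1 TPM, and log2(TPM + 0.1) was modelled in limma 3.58.1 under R 4.3.3. The prior variance followed the mean level, and tests were two-sided. Both sexes together were compared as 6 against 6 libraries, while the contrasts within a sex and the interaction came from 1 fit of 4 groups of 3. P-values were adjusted over all genes tested by the Benjamini-Hochberg method, and calls needed both an adjusted p below 0.05 and more than a 1.2-fold change. The script was tested on simulated data. Members and lists were chosen with earlier results of these data known.

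Values by library, or their range and median by genotype, are given with fold changes for *Dek* and for enzymes called or with an unadjusted p under 0.05. The highest and lowest tested enzymes of each role are given in the same way. List genes are named where called or else the 3 with the smallest unadjusted p. *Prmt1* was not matched and was not analyzed here. Alternatives were the TPM added, the filter, 2 rescalings, the prior variance, a covariate for sex, blocks by replicate number, the libraries named after CMV, the sex of 2 libraries, and leaving out each library. The sources used here do not say whether libraries share litters or sequencing runs.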

Additional observations from a re-analysis of the deposited data

Results flagged for a closer look

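In 4 of 98 groups of 6 libraries, counted as 1 genotype of 1 tested enzyme, a library stood far from the other 5. Chance flags about 1 in 20 such groups. *Kdm4b* was at 59.8 TPM in male WT 3, where the other WT libraries ran from 88.9 to 99.6 TPM, and at 54.4 TPM in male cKO 2, where the other *Dek* cKO libraries ran from 76.8 to 83.2 TPM. *Hdac3* was at 70.7 TPM in male cKO 2, beside 81.1 to 85.9 TPM in the other *Dek* cKO libraries. *Ep300* was at 18.2 TPM in female WT 2, beside 15.9 to 16.6 TPM in the other WT libraries. Male cKO 2 was also the lowest library for 12 of 49 enzymes, and its median deviation over the 49 was the lowest of the 12 libraries, at −0.09 on the log2 scale.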

How the results depend on the processing

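All 91 recounts of enzymes called, over 25 alternatives and 4 comparisons, gave 0 with limma. The log2 fold change of *Dek* stayed between −2.82 and −2.60. The median log2 fold change of the enzymes ran from −0.01 to 0.04, and the number with intervals within 1.2-fold from 25 with the libraries named after CMV to 40 with 1 TPM added. Counts at an unadjusted p under 0.05 moved, and the cause was not tested. In both sexes the count was 1 and became 0 with the replicate block, with the libraries named after CMV and, added after seeing the data, without both libraries of conflicting sex. In females it was 1 and became 2 without a filter, without the conflicting libraries and with the 6 female libraries alone, and 3 with the sexes exchanged. In males it was 1 and became 0 with the replicate block and with the 6 male libraries alone. In the interaction it was 2 and became 0 with a prior variance without trend and 1 with the replicate block. Leaving out 1 library gave 0 to 2 in both sexes, 0 to 2 in females, 0 to 4 in males and 0 to 5 in the interaction, the highest of the last 2 without male cKO 2. The share of all genes in these fits ran from 5.63% to 7.86% in both sexes, 4.44% to 8.19% in females, 3.78% to 9.61% in males and 3.19% to 6.99% in the interaction, and without male cKO 2 it was 9.61% in males and 6.94% in the interaction. In both sexes the count was 0 without any of female WT 1, 2 or 3, male WT 1 or female cKO 2, and 2 without male cKO 2 or 3. A count of 1 was not always *Setdb1*: it was *Kdm4b* without male WT 3, *Suz12* without female cKO 1 and *Kat6b* without male cKO 1. In females it was 0 without female WT 1 and 2 without female cKO 2 or 3. In males it was 0 without any of female WT 1, 2 or 3, male WT 1 or 2, or male cKO 1 or 3, and *Kdm4b* took the place of *Suz12* without male WT 3. In the interaction it was 0 without male WT 2, female cKO 1 or male cKO 3, and 1 without female WT 1 or 2, male WT 3, female cKO 2 or 3, or male cKO 1, and without male WT 1 the 2 were *Ezh1* and *Hdac6*. Partner genes at an unadjusted p under 0.05, 7 in the comparison of both sexes, were 4 with the libraries named after CMV, beside 4.77% of all genes, and 5 to 13 on leaving out 1 library, the 13 without male cKO 2, beside 7.86%. Small fold changes turned sign: with the libraries named after CMV, *Suv39h2* was 0.0207, *Kat7* −0.0238 and *Hdac11* 0.0053, and without the conflicting libraries *Suv39h2* was 0.0244. Leaving out 1 library gave −0.0440 to 0.0348 for *Suv39h2*, −0.0022 to 0.0576 for *Kat7* and, in both sexes together, −0.0529 to 0.0927 for *Kdm6b*, which was 0.0231 with all libraries and 0.172 with those named after CMV. The interaction of *Kdm6b* kept its sign, from 0.316 to 0.631 on leaving out 1 library and from 0.284 to 0.631 over all 22 alternatives. Replicate numbers did not pair the libraries, with correlations of same-numbered deviations from −0.04 to 0.04. Depth is unknown from TPM.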

Other observations

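The cell type makeup of the libraries was read from marker lists. Oligodendrocyte markers, led by *Mbp*, summed to between 2348 TPM in male WT 2 and 4866 TPM in male WT 1, and astrocyte markers, led by *Slc1a2*, to between 1104 TPM in female cKO 2 and 2212 TPM in male cKO 3. Male cKO 3 held both the highest value of 11 enzymes and the lowest value of 11 others, and the part of the cell type makeup in this was not tested. The 6 markers of proliferating cells, led by *Mcm2* at a mean of 3.05 TPM, summed to between 6.63 and 9.98 TPM, and among the PRC2 methyltransferases *Ezh2*, known for its high level in dividing cells, was at 9.48 TPM in WT.

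The sex-linked demethylases not among the 50 enzymes followed the sex chromosomes. *Kdm5c*, an X-linked H3K4 demethylase that escapes inactivation, was at 25.9, 30.9 and 27.5 TPM in female WT and at 19.1, 19.9 and 20.6 TPM in male WT. *Kdm6a*, an X-linked H3K27 demethylase, was at 11.7, 11.97 and 13.6 TPM in female WT and at 8.50, 9.26 and 9.40 TPM in male WT. For both, the library labelled male cKO 1 lay in the female range or near it, at 25.2 and 12.3 TPM, and the library labelled female cKO 3 was at 19.6 and 7.83 TPM.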
